A study of Mus musculus with 12 samples.

Results

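The 34 genes described here act in mitosis, the stage of the cell cycle in which copied chromosomes are divided between daughter cells. They were taken by name, a rule that itself uses no measured value, but the names were chosen with earlier results of these data known. All 34 names were found among the 39423 genes of the deposited table. The data are mRNA sequencing of 3T3-L1 cells, a mouse preadipocyte line that is turned into adipocytes by DMI (insulin and dexamethasone together with 3-isobutyl-1-methylxanthine). The cells had been transfected transiently with control siRNA (siCtrl) or with siRNA against the arginine methyltransferase PRMT1 (siPRMT1), and they received DMI for 24 h (day 1) or 72 h (day 3). Each of the 4 conditions had 3 libraries, 12 in all, and every condition, the controls included, had received DMI. Which of the PRMT1 siRNAs was sequenced is not given in the sources used here. The methods speak of independent experiments for the data in general and do not say how these libraries were cultured, so the p-values measure the spread between the libraries, which may be technical.

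Confluent 3T3-L1 preadipocytes are arrested, and the adipogenic mixture makes them re-enter the cell cycle for a limited burst of division, mitotic clonal expansion, before they leave the cycle and accumulate lipid. Entry into mitosis is driven by cyclin B bound to the kinase CDK1, the spindle assembly checkpoint holds cells until every kinetochore is attached to microtubules, and the anaphase-promoting complex (APC/C) with its activator CDC20 then marks securin and cyclin B for destruction. Many of these genes are transcribed mainly in G2 and mitosis, through CCAAT boxes bound by NF-Y and a cell cycle homology region (CHR) element bound by the MuvB complex, which represses them as part of DREAM in resting cells and activates them together with B-MYB and FOXM1 in dividing cells.

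Both sequence elements were looked for in the promoters, because all 34 genes moved in the same direction between the days. RefSeq promoter windows on GRCm38.p6, each 300 bases long from 250 bases before the start of transcription, were held for 28 of the 34 genes, and those of Ccna2, Aurkb, Incenp, Tpx2, Kif20a and Foxm1 were not used here. A CCAAT box (CCAAT or, on the other strand, ATTGG) stood in the window of 22 of the 28 genes (78.6%) and of 41.1% of the 27025 genes with a window. A CHR element (TTTGAA or TTTAAA, or TTCAAA on the other strand) stood in 23 of the 28 (82.1%) and in 30.6% of all. TTTAAA is its own reverse complement and was counted once, and the matches of the 2 elements were counted separately. Both elements together were found in 20 of the 28 windows (71.4%) and in 13.4% of all. Among the 9040 genes with a window and at least 10 counts in every library, the shares were 43.3% for CCAAT, 22.3% for CHR and 10.7% for both. At least 2 CCAAT boxes stood in 16 of the 28 (57.1%, against 13.3% of all). A match is a description of the letters, not a bound site.

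The 170 bases just before the start of transcription are shown for 6 genes, each read 5′ to 3′ on the strand of its gene, with CCAAT boxes and CHR elements in capitals. Cdk1, Ccnb2 and Cdc20 are shown for their roles in mitotic entry and exit, Top2a and Cenpf because they fell most between the days in control cells, and Mad2l1 because neither element stood in its window. The Cdk1, Ccnb2, Cdc20, Top2a and Cenpf sequences lie on the minus strand and that of Mad2l1 on the plus strand.
Cdk1, chr10:69352913-69353082: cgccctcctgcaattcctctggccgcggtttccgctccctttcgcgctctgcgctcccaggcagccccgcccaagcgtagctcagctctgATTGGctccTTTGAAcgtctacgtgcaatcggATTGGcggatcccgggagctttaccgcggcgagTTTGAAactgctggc
Ccnb2, chr9:70421555-70421724: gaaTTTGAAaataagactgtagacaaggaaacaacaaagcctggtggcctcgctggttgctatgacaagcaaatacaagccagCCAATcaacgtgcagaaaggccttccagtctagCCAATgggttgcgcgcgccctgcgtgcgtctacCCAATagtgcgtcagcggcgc
Cdc20, chr4:118437344-118437513: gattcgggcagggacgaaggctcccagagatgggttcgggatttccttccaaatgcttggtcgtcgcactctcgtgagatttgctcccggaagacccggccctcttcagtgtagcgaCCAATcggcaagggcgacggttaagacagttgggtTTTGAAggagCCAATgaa
Top2a, chr11:99024190-99024359: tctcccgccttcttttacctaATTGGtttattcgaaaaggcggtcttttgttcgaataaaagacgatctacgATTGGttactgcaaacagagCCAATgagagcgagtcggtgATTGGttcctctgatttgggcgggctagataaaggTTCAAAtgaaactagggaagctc
Cenpf, chr1:189688087-189688256: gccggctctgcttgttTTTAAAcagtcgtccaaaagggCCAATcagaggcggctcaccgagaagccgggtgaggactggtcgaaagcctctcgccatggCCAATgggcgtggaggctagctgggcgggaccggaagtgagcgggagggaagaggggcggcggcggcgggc
Mad2l1, chr6:66535051-66535220: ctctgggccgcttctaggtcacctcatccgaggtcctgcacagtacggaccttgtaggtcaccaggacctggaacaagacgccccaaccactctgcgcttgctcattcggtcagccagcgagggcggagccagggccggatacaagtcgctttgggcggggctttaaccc

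Counting from the start of transcription, the CCAAT boxes printed began 80 and 48 bases before it in Cdk1, 87, 54 and 21 bases before it in Ccnb2, and 53 and 8 bases before it in Cdc20. Top2a held 4 CCAAT boxes in the bases printed, and Cenpf held 2, which began 132 and 71 bases before the start. A CHR element began 15 bases before the start in Cdk1, 18 in Cdc20 and 23 in Top2a. Within the 100 bases before the start, 20 of the 28 genes (71.4%) held a CCAAT box, against 22.0% of all, and 10 of the 28 (35.7%) a CHR element, against 11.6%. Neither element was found in the windows of Mad2l1, Nusap1 and Pttg1. The map of both elements shows the CCAAT boxes gathered upstream of the start and the CHR elements on both sides of it.

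**Figure D1:**
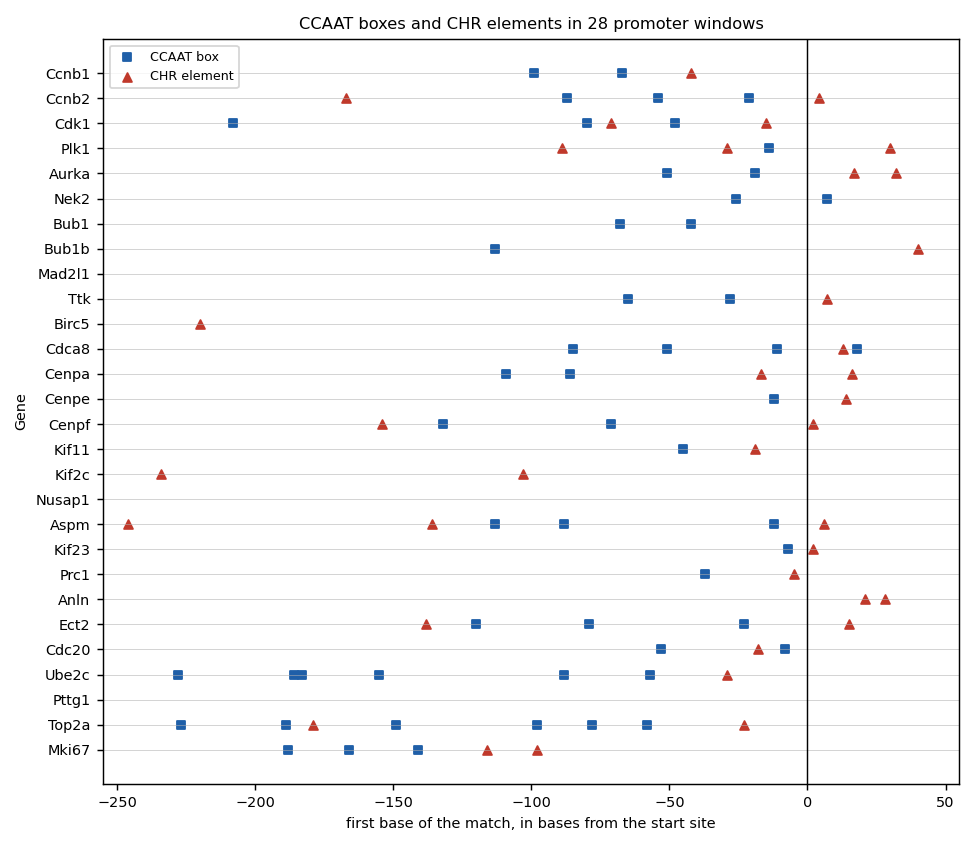
Positions of CCAAT boxes (blue squares) and CHR elements (red triangles) in the promoter windows of 28 mitosis genes, with the gene on the vertical axis and the distance of the match from the start of transcription, in bases, on the horizontal axis; for Ect2 and Prc1, which have 2 windows, 1 is drawn. Of the 28 genes, 22 carry a CCAAT box and 23 a CHR element, and Mad2l1, Nusap1 and Pttg1 carry neither.

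The libraries held from 15116462 to 42357137 counts on genes, so that a count of 0 allows up to 0.0708 to 0.198 CPM, counts scaled to library size, from counting error alone. No mitosis gene was at 0 in any library, and the lowest count was 53, for Nek2. The targeted gene Prmt1 was at 82.9, 83.4 and 91.3 FPKM (fragments per kilobase of gene model, scaled to library size) in siCtrl and 43.8, 38.6 and 41.4 in siPRMT1 libraries at day 1, and at 111, 120.4 and 140.2 in siCtrl and 62.02, 71.7 and 68.5 in siPRMT1 libraries at day 3. Its siPRMT1 libraries lay below every siCtrl library on both days, with log2 fold changes of -1.11 (SE 0.076, adjusted p = 0.00098) at day 1 and -0.88 (SE 0.088, adjusted p = 1.2e-05) at day 3. Of 8 adipocyte markers, 5 exceeded 1 FPKM in every day 1 library, among them Lpl, while Adipoq (0.03 to 0.46) and Plin1 (0.25 to 1.07) were near 0. At day 3 Adipoq was at 200 to 238 FPKM in siCtrl and 131 to 139 in siPRMT1, and Plin1 at 175 to 196 and 104 to 119. The 8 summed to 148 to 154 FPKM at day 1 and 2802 to 3019 at day 3 in siCtrl, and to 112 to 126 and 2175 to 2384 in siPRMT1. The 6 preadipocyte markers summed to 1050 to 1185 FPKM at day 1 and 462 to 504 at day 3 in siCtrl, and to 999 to 1057 and 557 to 648 in siPRMT1. Of 4 macrophage markers, the defining Adgre1 reached at most 0.01 FPKM and only Cd68 exceeded 1 FPKM in every library, and their sum lay between 2.02 and 2.56 FPKM in all 4 conditions. Of 3 skeletal muscle markers Myod1 was at 0 in all 12 libraries and Myog reached at most 0.03 FPKM, while Des, and with it the sum, lay at 0.68 to 1.14 FPKM at day 1 and at 6.32 to 6.53 at day 3 in siCtrl, with sums of 0.70 to 0.76 and 3.54 to 4.0 in siPRMT1. The 3 endothelial markers summed to at most 0.88 FPKM. The part of these genes in the results was not tested.

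One library stood apart and touches many of the results. In siCtrl day 1 replicate 3, most mitosis genes with long gene models were low, with Anln as the exception. Cenpf was at 270.1, 231 and 93.3 CPM in siCtrl day 1 replicates 1, 2 and 3, Cenpe at 225, 209 and 90.2, Aspm at 215, 211 and 111, and Mki67 at 611, 579.5 and 292. The 5 mitosis genes with gene models of at least 6000 bases had a median log2 ratio of -1.03 in this library relative to the mean of the other 2, while the 23 with models under 4000 bases had one of 0.10. Over all genes with at least 10 counts in every library the same medians were -0.082 (2572 genes) and 0.17 (7109 genes). Across the 34 genes, this ratio and log2 gene length had a Pearson r of -0.75, a description of genes that share 1 library. At like length, Foxm1 (54.6% GC) and Tpx2 (47.8%) were at 0.25 and 0.0059, and Bub1 (41.0%) and Ect2 (40.2%) at -0.52 and -0.41. Among shorter genes low in GC, Ttk and Nusap1 were at -0.49 and -0.43, but Mad2l1 and Prc1 at -0.010 and -0.047. Length and GC content were not told apart. The same r was 0.72 in siCtrl day 3 replicate 1 and 0.66 in siPRMT1 day 1 replicate 2, with medians of the long genes of 0.20 and 0.089. In all counts siCtrl day 1 replicate 3 also differed most from its replicates, at 50.6 and 30.8 chi-square per gene from replicates 1 and 2, which differed from each other by 5.30. Values without this library are given beside the results that it moved most, and its part in those results was not tested beyond leaving it out.

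**Figure D2:**
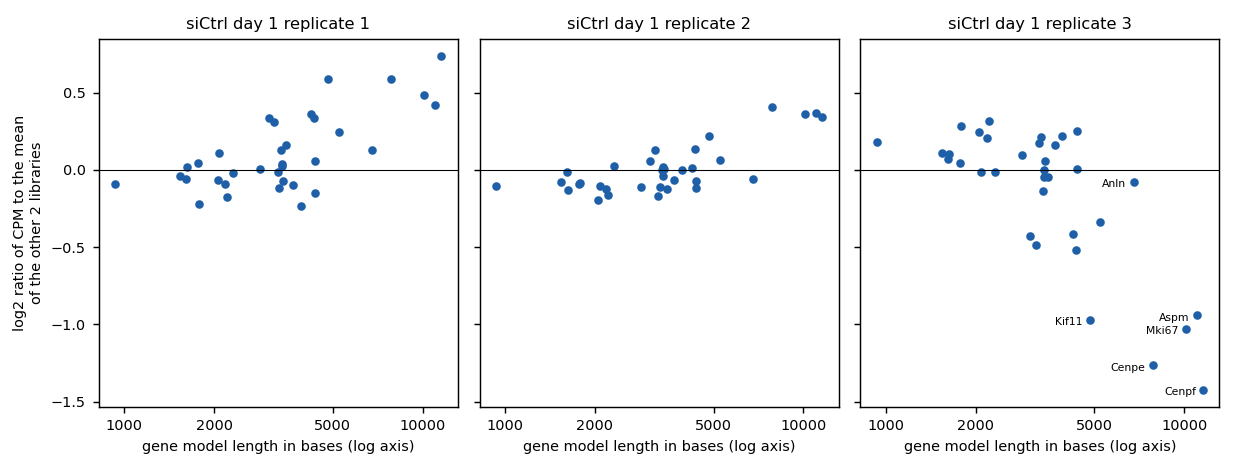
Each point is 1 of the 34 mitosis genes in 1 siCtrl day 1 library; the horizontal axis is the length of the gene model in bases (log axis) and the vertical axis the log2 ratio of its CPM to the mean of the other 2 libraries. In replicate 3 the long genes Cenpf, Cenpe, Mki67 and Aspm, and Kif11, lie lowest, down to -1.42 for Cenpf.

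Levels between genes were compared as FPKM, the deposited measure per length. At day 1 in siCtrl cells the mean FPKM of the 34 genes ran from 2.34 for Kif11 to 243 for Ube2c, with a median of 49.0. Ube2c, the ubiquitin-conjugating enzyme that starts ubiquitin chains for the APC/C, was the most abundant in all 4 conditions: 235, 236 and 257 FPKM in siCtrl and 258, 239.9 and 276 in siPRMT1 at day 1, and 143, 172 and 146 in siCtrl and 122, 139.6 and 142 in siPRMT1 at day 3. Top2a, the topoisomerase that untangles sister chromatids, came next at day 1, at 228, 212 and 168 FPKM in siCtrl and 184, 202 and 173 in siPRMT1 libraries. Ccnb1, encoding cyclin B1, followed in siCtrl, at 153, 158 and 149. At the other end stood Nek2, a centrosome kinase, at 2.77, 2.70 and 2.64 FPKM, and Kif11, the motor that pushes spindle poles apart, at 3.02, 2.62 and 1.39 FPKM. The lowest place of Kif11 rests on siCtrl day 1 replicate 3, without which its mean was 2.82 FPKM and that of Nek2 2.74. Of the 33 pairs of neighbours in this order, 27 overlapped in their libraries, and 6 pairs stood apart, among them Ube2c above Top2a and Top2a above Ccnb1. A separate entry for a copy of Nek2 held 0.408% of the joint counts of copy and gene, and one for Kif11 1.15%, and both were kept out.

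The main result was the drop of all 34 genes between day 1 and day 3, in control and in knockdown cells. In siCtrl cells every gene fell, from Cenpf, which was at 19.9% of its day 1 mean, to Cdca8, which was at 67.95%. In siPRMT1 cells every gene fell as well, from Cenpf at 19.02% to Mad2l1 at 65.6% of the day 1 mean. The summed CPM of the 34 genes at day 1 was 7647 ± 477 (SD, n = 3) in siCtrl and 7213 ± 111 in siPRMT1 cells, and 3024 ± 54.5 and 3082 ± 56.1 at day 3, which is 39.5% and 42.7% of the day 1 value. The single siCtrl day 1 libraries summed to 8081, 7725 and 7136 CPM, and without replicate 3 the day 3 sum was 38.3% of day 1. In bulk samples, fewer dividing cells and less of each mRNA per cell cannot be told apart.

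Changes were tested with edgeR on the counts, 3 against 3 libraries, and a call needed an adjusted p (Benjamini-Hochberg, over all genes tested) under 0.05 as well as an absolute log2 fold change over 0.5. All 34 genes were called lower at day 3 in siCtrl cells, where 20.4% of the 13829 genes tested were, and all 34 had day 3 libraries that lay below every day 1 library, as 31.4% of all genes did. Their median log2 fold change was -1.27 (all genes -0.0042), with a range from -2.29 to -0.51, and the largest adjusted p was 0.00238, for Mki67. In siPRMT1 cells all 34 were again called lower, where 17.4% of the 14224 genes tested were, and all 34 lay without overlap below day 1, as 32.8% did. The median there was -1.24 (all genes 0.0022), with a range from -2.40 to -0.61, and the largest adjusted p was 3.5e-06, for Mad2l1. In FPKM the exact two-sided permutation test gave p = 0.1 for each gene in both comparisons, the smallest that 3 against 3 libraries allow. Without siCtrl day 1 replicate 3 all 34 genes were still called lower in siCtrl cells, with a median of -1.41 and a range from -2.65 to -0.50. The call of Cdca8 rests on the fold threshold: it was lost with a filter of at least 10 counts, with upper quartile factors, with library totals and in log2 FPKM, and its log2 fold change ran from -0.63 to -0.43 over the 20 alternatives.

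**Figure D3:**
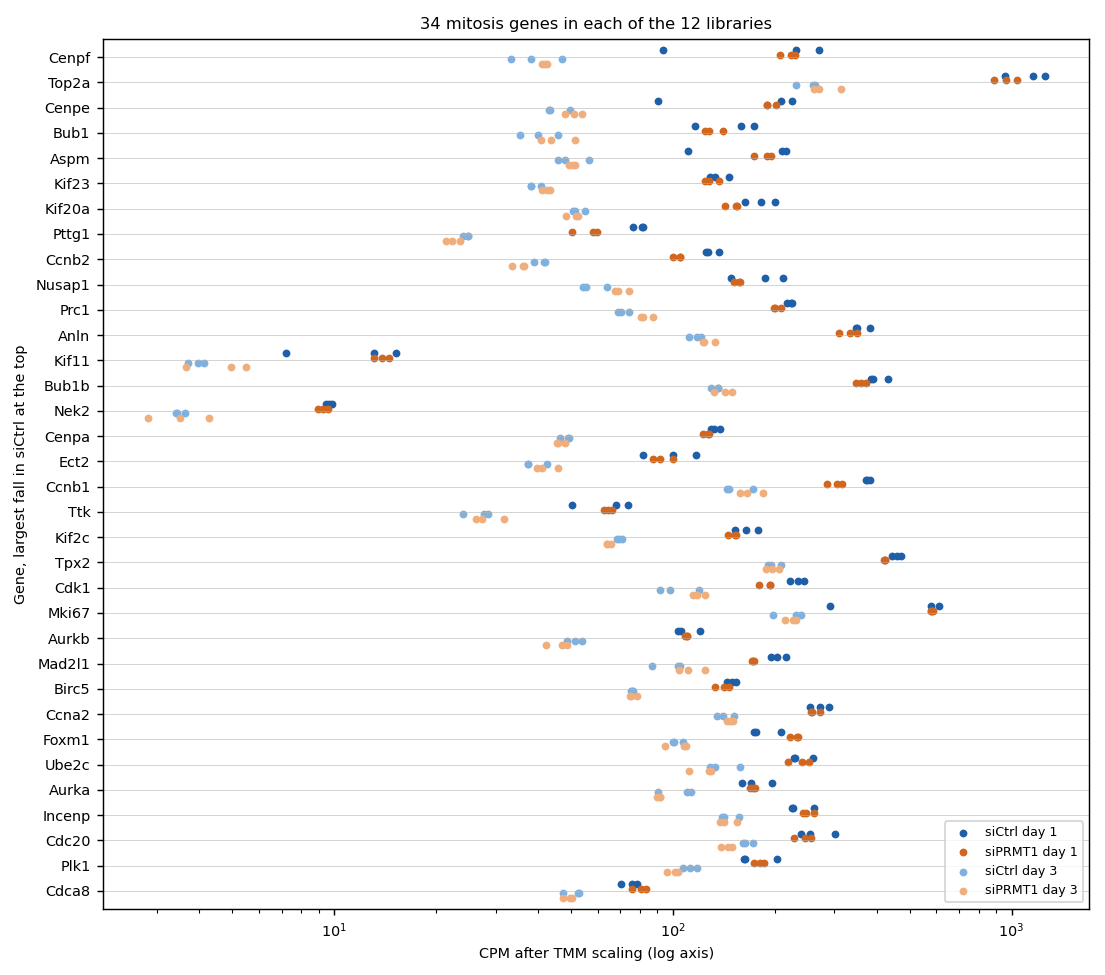
CPM (log axis) of the 34 mitosis genes in each of the 12 libraries, ordered by the fall in siCtrl cells with the largest at the top; each point is 1 library and each color 1 condition. For every gene the 6 libraries of day 3 lie left of the 6 libraries of day 1, and the 3rd siCtrl day 1 point of Cenpf, Cenpe, Aspm, Mki67 and Kif11 lies left of the other two.

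The cyclins and mitotic kinases fell by different amounts. Ccnb2, encoding cyclin B2 (chr9:70407689-70421554, minus strand), was at 127, 125 and 137 CPM at day 1 and 39.03, 41.8 and 41.9 at day 3 in siCtrl libraries, and at 105, 99.8 and 105 (day 1) and 33.6, 36.1 and 36.4 (day 3) in siPRMT1 libraries. It fell most of this group, with log2 fold changes of -1.62 (SE 0.083, adjusted p = 1.9e-07) in siCtrl and -1.55 (SE 0.061, adjusted p = 8.4e-11) in siPRMT1. Ccnb1 (chr13:100778739-100786486, minus strand) was at 373, 381 and 374 CPM at day 1 and 147, 144 and 172 at day 3 in siCtrl, and at 316, 306 and 285 (day 1) and 185, 166 and 158 (day 3) in siPRMT1. The days did not overlap in either, and it fell with log2 fold changes of -1.24 (SE 0.087) and -0.84 (SE 0.069). Cdk1, the kinase that both bind (chr10:69336635-69352912, minus strand), was at 234, 222 and 244 CPM at day 1 and 97.9, 91.9 and 119 at day 3 in siCtrl, and at 194, 193 and 179 (day 1) and 125, 118 and 115 (day 3) in siPRMT1. It fell with log2 fold changes of -1.13 (SE 0.10) and -0.67 (SE 0.061). Ccna2, encoding cyclin A2, which acts in S phase and G2, fell with log2 fold changes of -0.89 in siCtrl and -0.83 in siPRMT1. In siCtrl it fell less than Ccnb2, Ccnb1 and Cdk1, from 272 ± 16.9 to 142 ± 8.74 CPM (mean ± SD, n = 3). In siPRMT1 its fall was near that of Ccnb1 and larger than that of Cdk1. Plk1 and Aurka, kinases of centrosome maturation and mitotic entry, fell with log2 fold changes of -0.60 and -0.70 in siCtrl and with -0.85 and -0.92 in siPRMT1. Nek2 fell with log2 fold changes of -1.42 (SE 0.13) and -1.41 (SE 0.13).

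All 4 genes of the spindle assembly checkpoint fell in both kinds of cell. Bub1, a kinase that docks checkpoint proteins at the kinetochore, was at 174, 159 and 116 CPM at day 1 and 45.7, 35.5 and 40.02 at day 3 in siCtrl libraries. Its log2 fold change was -1.85 (SE 0.16) there, -2.02 without siCtrl day 1 replicate 3, and -1.54 (SE 0.088) in siPRMT1. Bub1b, encoding the checkpoint inhibitor BUBR1, fell with log2 fold changes of -1.54 (SE 0.076) and -1.36 (SE 0.063), from 402 ± 26.5 to 134 ± 3.63 CPM in siCtrl. Mad2l1, the gene of the CDC20 inhibitor MAD2, was at 215, 195 and 204 CPM at day 1 and 104, 86.7 and 105 at day 3 in siCtrl, and at 174, 173 and 171 (day 1) and 125, 111 and 104 (day 3) in siPRMT1. Its log2 fold change was -1.01 (SE 0.095) in siCtrl, and -0.61 (SE 0.069) in siPRMT1, where its fall was the smallest of the 34. Ttk, the kinase that starts the checkpoint signal, fell with log2 fold changes of -1.22 (SE 0.15) in siCtrl, with -1.38 without that library, and with -1.18 (SE 0.081) in siPRMT1.

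The chromosomal passenger complex, which corrects wrong attachments, held the smallest fall in siCtrl cells. Cdca8, its borealin subunit, was at 75.6, 70.4 and 78.6 CPM at day 1 and 47.5, 52.4 and 52.7 at day 3 in siCtrl, and at 80.8, 75.8 and 83.3 (day 1) and 47.5, 49.7 and 50.4 (day 3) in siPRMT1. The days stood apart in both, with log2 fold changes of -0.51 (SE 0.089, adjusted p = 0.00068) and -0.70 (SE 0.061, adjusted p = 2.5e-07). Incenp, the scaffold, fell with log2 fold changes of -0.65 and -0.80, Birc5, encoding survivin, with -0.93 and -0.89, and Aurkb, the kinase of the complex, with -1.05 and -1.26, in siCtrl and siPRMT1.

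Among the genes of centromere and kinetochore, Cenpf, a large outer kinetochore protein (chr1:189640606-189688105, minus strand), was at 270.1, 231 and 93.3 CPM at day 1 and 46.98, 38.1 and 33.2 at day 3 in siCtrl libraries. In siPRMT1 libraries it was at 223, 229 and 207 (day 1) and 42.4, 41.9 and 41.2 (day 3). Its fall was the largest of the 34 in both, with log2 fold changes of -2.29 (SE 0.33) in siCtrl and -2.40 (SE 0.064) in siPRMT1. Without siCtrl day 1 replicate 3 the former was -2.65 (SE 0.11), and with trends in GC content and length removed it was -2.01. Cenpe, the kinetochore motor that brings chromosomes to the spindle equator, fell with log2 fold changes of -1.90 (SE 0.29) in siCtrl, with -2.23 without that library, and with -1.93 (SE 0.067) in siPRMT1. Cenpa, the histone H3 variant of centromeres, fell with log2 fold changes of -1.42 (SE 0.081) and -1.45 (SE 0.058), and its day 1 libraries were close together, at 129.8, 132 and 137 CPM in siCtrl.

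Of the spindle motors and microtubule factors, Aspm, which focuses the spindle poles, fell with log2 fold changes of -1.80 (SE 0.23) in siCtrl, with -2.07 without siCtrl day 1 replicate 3, and with -1.89 in siPRMT1. Nusap1, a microtubule binder of the spindle, was at 211, 187 and 148 CPM at day 1 and 63.9, 55.4 and 54.4 at day 3 in siCtrl, and at 152, 157 and 158 (day 1) and 74.1, 68.98 and 67.7 (day 3) in siPRMT1. Its day 3 libraries lay below all of day 1, with log2 fold changes of -1.61 (SE 0.14) in siCtrl, -1.76 without that library, and -1.15 (SE 0.061) in siPRMT1. Kif11 fell with log2 fold changes of -1.56 (SE 0.26) in siCtrl, with -1.84 (SE 0.13) without it, and with -1.57 (SE 0.13) in siPRMT1, at 61 to 616 counts in a library. Kif2c, a motor that takes microtubules apart at the centromere, fell with log2 fold changes of -1.20 and -1.23, and Tpx2, the activator of Aurora A on the spindle, with -1.16 and -1.11.

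The 5 genes of cytokinesis, the final splitting of the cell, fell, with log2 fold changes from -1.76 to -1.31 in siCtrl and from -1.62 to -1.15 in siPRMT1. Kif23, a subunit of the centralspindlin complex, was at 147, 129 and 134 CPM at day 1 and 40.96, 38.2 and 38.2 at day 3 in siCtrl libraries, and fell with a log2 fold change of -1.76 (SE 0.090). Kif20a, the midzone motor that carries the passenger complex, fell with log2 fold changes of -1.75 and -1.57, and Prc1, the crosslinker of the midzone, with -1.60 and -1.29. Anln, the scaffold anillin of the contractile ring, fell with log2 fold changes of -1.57 and -1.39, and Ect2, the exchange factor that activates RhoA there, with -1.31 and -1.15.

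The 3 genes of anaphase fell by unlike amounts. Pttg1, encoding securin, the inhibitor of separase, was at 81.5, 76.4 and 81.4 CPM at day 1 and 24.9, 24.9 and 24.01 at day 3 in siCtrl, and at 59.8, 50.3 and 58.3 (day 1) and 22.3, 23.6 and 21.4 (day 3) in siPRMT1, and fell with log2 fold changes of -1.65 (SE 0.086) and -1.33 (SE 0.079). Cdc20, the activator of the APC/C, was at 238, 254 and 300.2 CPM at day 1 and 164, 172 and 161 at day 3 in siCtrl, and fell with log2 fold changes of -0.63 (SE 0.091) there and -0.75 (SE 0.058) in siPRMT1. Ube2c fell with log2 fold changes of -0.73 (SE 0.097) and -0.95 (SE 0.069). Top2a was at 1251, 1153 and 954 CPM at day 1 and 263, 231 and 260.04 at day 3 in siCtrl, and fell with log2 fold changes of -2.11 (SE 0.11) there, -2.24 without siCtrl day 1 replicate 3, and -1.78 (SE 0.081) in siPRMT1. In mean FPKM Top2a thus went from the 2nd of the 34 to the 6th in siCtrl, while Plk1 went from the 13th to the 5th. Mki67, the proliferation antigen of the chromosome surface, fell with log2 fold changes of -1.11 (SE 0.24) in siCtrl, with -1.40 (SE 0.079) without siCtrl day 1 replicate 3, and with -1.38 (SE 0.054) in siPRMT1. Foxm1, the transcription factor that activates many of these genes, was at 174, 177 and 209 CPM at day 1 and 101, 107 and 99.98 at day 3 in siCtrl, and at 234, 222 and 232 (day 1) and 94.8, 109 and 108 (day 3) in siPRMT1, and fell with log2 fold changes of -0.81 (SE 0.089) and -1.15 (SE 0.062).

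**Figure D4:**
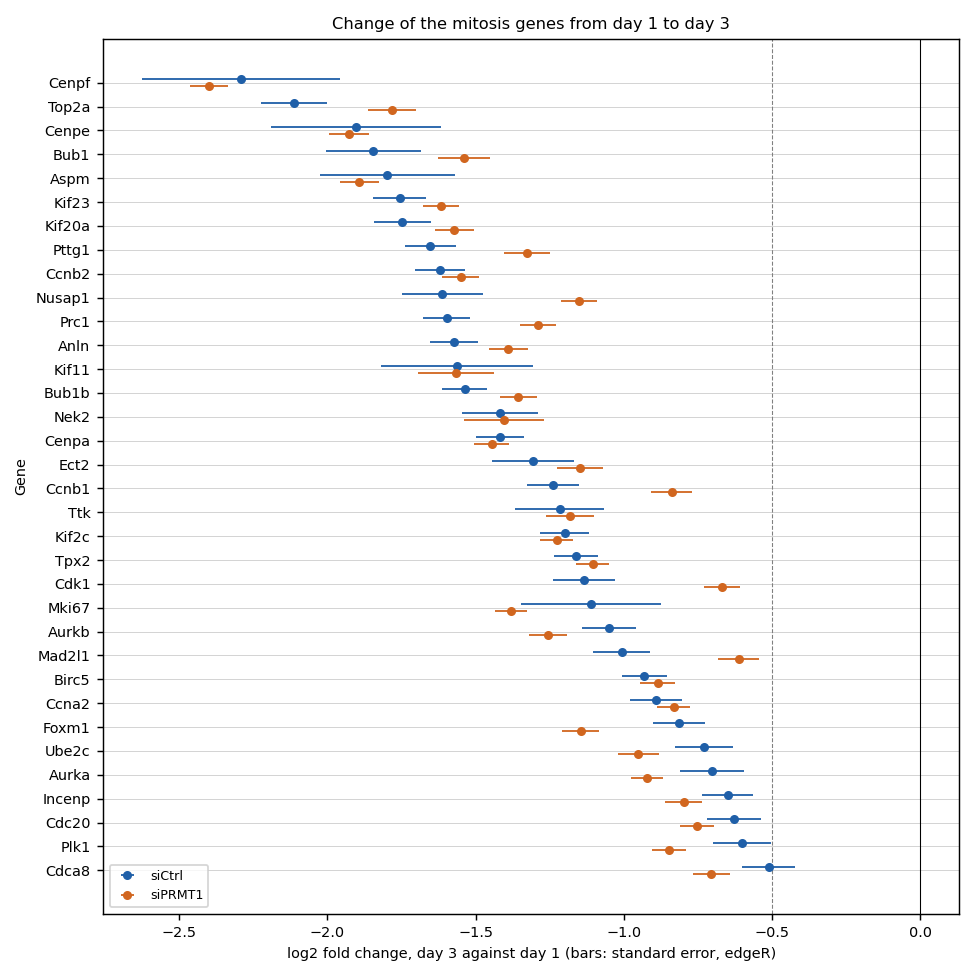
Log2 fold change of day 3 against day 1 for the 34 mitosis genes in siCtrl (blue) and siPRMT1 (orange) cells, with the standard error of the edgeR fit as bars; the dashed line marks -0.5. All values lie below 0, from -2.40 to -0.51, and the widest bars are those of Cenpf, Cenpe and Kif11 in siCtrl.

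With PRMT1 knocked down, few mitosis genes stood apart from control at day 1. Pttg1, Ccnb2, Ccnb1 and Cdk1 were lower at an adjusted p under 0.05, with log2 fold changes from -0.46 to -0.26, and Foxm1 was higher, at 0.35. None of these reached the fold threshold, so none of the 34 was called higher or lower by edgeR, where 1.95% of the 13689 genes tested were called higher and 1.61% lower, and DESeq2 also called none. The median log2 fold change of the 34 was -0.034 (all genes 0.0096), and 21 of the 34 were negative, but with library totals in place of TMM scaling the median was 0.016 (all genes 0.060) with 16 negative, and in log2 FPKM 0.017 with 15 negative.

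At an adjusted p under 0.05 with no fold threshold, 1 of the 34 was higher (3.22% of all genes) and 4 were lower (4.38%), the same numbers as by DESeq2, and at an unadjusted p under 0.05, 1 was higher (11.8%) and 6 were lower (12.8%). With CPM scaled within the comparison, 2 of the 34 had siPRMT1 libraries above every siCtrl library (15.5% of all genes) and 8 below (16.0%). Pttg1 was at 81.5, 76.4 and 81.4 CPM in siCtrl and 59.8, 50.3 and 58.3 in siPRMT1 libraries at day 1. All 3 siPRMT1 libraries were low, and the log2 fold change was -0.46 (SE 0.081, adjusted p = 0.0168). Ccnb2 was at 127, 125 and 137 against 105, 99.8 and 105 CPM, with a log2 fold change of -0.28 (SE 0.061, adjusted p = 0.0322). Ccnb1 was at 373, 381 and 374 against 316, 306 and 285 CPM, with one of -0.27 (SE 0.064, adjusted p = 0.0411). Cdk1 was at 234, 222 and 244 against 194, 193 and 179, with one of -0.26 (SE 0.063, adjusted p = 0.0455). In all of these genes the groups did not overlap. Foxm1, in the other direction, was at 174, 177 and 209 against 234, 222 and 232 CPM, with a log2 fold change of 0.35 (SE 0.070, adjusted p = 0.0238) and no overlap. Kif20a, at 163, 182 and 201 against 155, 154 and 143 CPM, and Mad2l1, at 215, 195 and 204 against 174, 173 and 171, also did not overlap, with values of -0.22 (adjusted p = 0.128) and -0.20 (adjusted p = 0.109). Ccna2 differed by less than the spread between libraries, at 289, 272 and 255 against 256, 271 and 258 CPM (-0.010, SE 0.077).

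The day 1 result depends on the control library that stood apart. Cenpf, Cenpe, Aspm, Mki67, Kif11 and Ttk had positive log2 fold changes, of 0.18, 0.18, 0.095, 0.27, 0.25 and 0.045, and without siCtrl day 1 replicate 3 these were -0.17, -0.14, -0.17, -0.012, -0.021 and -0.12. The standard errors of Aspm, Kif11, Mki67, Cenpe and Cenpf with all libraries, 0.23 to 0.33, were the widest of the 34. Without that library 26 of the 34 were negative, with a median of -0.085, and at an adjusted p under 0.05 with no fold threshold 9 were lower and 3 higher, still with none called at the fold threshold. The 9 were Pttg1 (-0.47), Nusap1 (-0.33), Bub1 (-0.32), Ccnb1 (-0.30), Top2a (-0.29), Ccnb2 (-0.27), Cdk1 (-0.25), Mad2l1 (-0.23) and Aspm (-0.17), and the 3 were Foxm1 (0.41), Incenp (0.18) and Plk1 (0.17). Calls over all genes rose as well in this fit, to 504 higher and 369 lower of 13949 genes, from 267 and 220 of 13689 with all libraries. These calls need the fold threshold as well. The share of all genes past the adjusted p alone is not given for this fit, so the 9 and 3 have no background beside them. Whether the rise was particular to the 34 was not tested. Leaving out another library instead left fewer past the adjusted p: Pttg1 alone without siCtrl replicate 1, and none without siCtrl replicate 2 or any 1 of the 3 siPRMT1 libraries. With library totals in place of TMM scaling, the share of higher genes among all called genes went from 54.8% to 68.6% (66.4% to 67.5% in log2 FPKM), and Ccnb1, Ccnb2 and Cdk1 were no longer past the adjusted p in that fit.

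At day 3 no mitosis gene passed both thresholds after knockdown. None of the 34 was called by edgeR, where 2.84% of the 14039 genes tested were called higher and 3.80% lower, and DESeq2 also called none. Log2 fold changes ran from -0.22 for Ccnb2 to 0.26 for Nusap1, with a median of -0.00061 (all genes 0.0073), and 17 of the 34 were negative. At an adjusted p under 0.05 with no fold threshold, 1 was higher (7.54% of all genes) and 1 lower (8.94%), by edgeR as by DESeq2, and at an unadjusted p under 0.05, 3 were higher (15.3%) and 6 lower (15.9%). The libraries did not overlap for 4 genes that were higher (16.8% of all) and 6 that were lower (18.1%). Nusap1 was at 63.9, 55.4 and 54.4 CPM in siCtrl and 74.1, 68.98 and 67.7 in siPRMT1 libraries. The siPRMT1 libraries all lay above, and the log2 fold change was 0.26 (SE 0.080, adjusted p = 0.035). Cdc20 was at 164, 172 and 161 against 139, 149.7 and 146 CPM, all siPRMT1 libraries below, with a log2 fold change of -0.21 (SE 0.067, adjusted p = 0.0427). Prc1 stood at 0.21 (adjusted p = 0.0563) and Ccnb2 at -0.22 (adjusted p = 0.0629). With 1 library left out, Nusap1 was past the adjusted p only without siCtrl replicate 1 (0.33, adjusted p = 0.0148; the other 5 from 0.0525 to 0.125) and Cdc20 in no fit (0.0502 to 0.178). Without siCtrl replicate 3, Cdk1 (0.31, adjusted p = 0.0231) and Aurka (-0.31, adjusted p = 0.0169) passed instead, and no mitosis gene passed without siCtrl replicate 2 or any 1 of the siPRMT1 libraries. Of the 14 alternatives that kept all libraries, Nusap1 had an adjusted p under 0.05 in 10 and Cdc20 in 7.

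**Figure D5:**
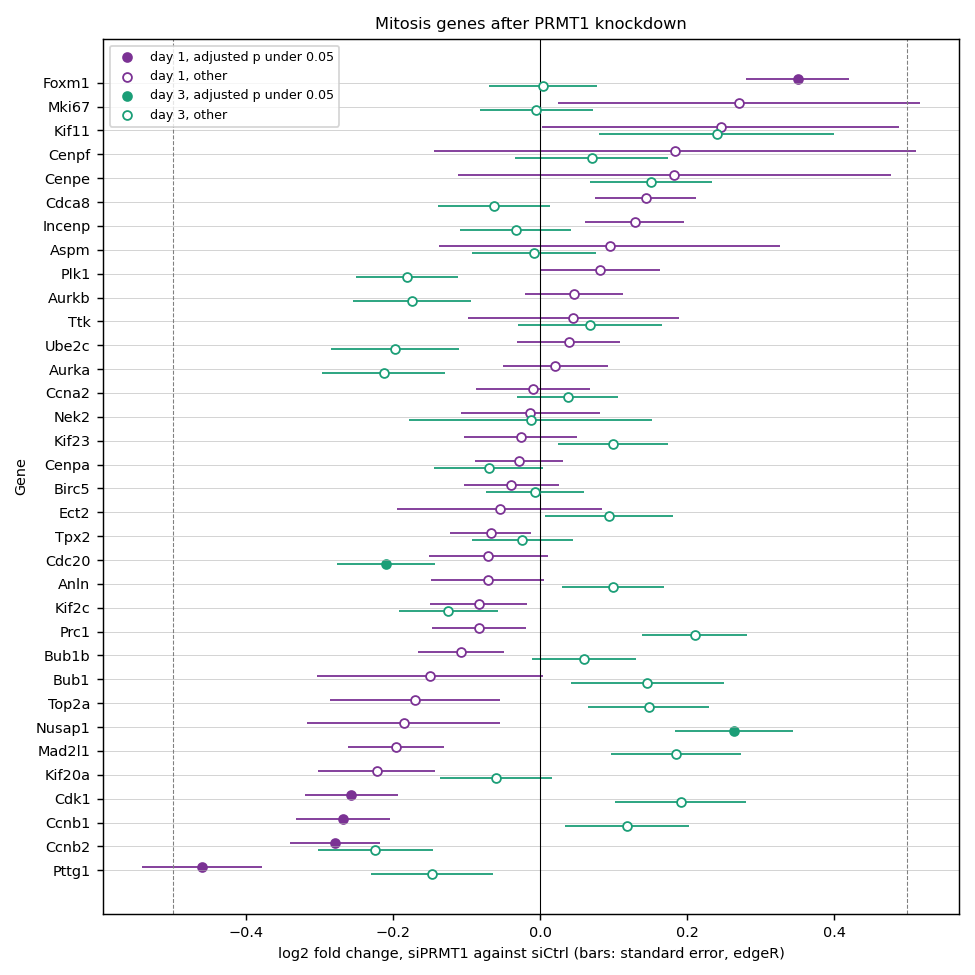
Log2 fold change of siPRMT1 against siCtrl for the 34 mitosis genes at day 1 (purple) and day 3 (green), with the standard error of the edgeR fit as bars; filled points have an adjusted p under 0.05 and the dashed lines mark -0.5 and 0.5. All points lie between the dashed lines, from -0.46 for Pttg1 to 0.35 for Foxm1, both at day 1.

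Whether the knockdown effect differed between the days was tested as an interaction over all 12 libraries, which is the same as asking whether the fall from day 1 to day 3 differed between the siRNAs. These comparisons share libraries with those above. None of the 34 was called by edgeR, where 4.77% of the 14612 genes tested had a called positive interaction and 3.47% a negative one, and DESeq2 also called none. At an adjusted p under 0.05 with no fold threshold, 4 were positive (7.69% of all genes) and 0 negative (4.63%) by edgeR, against 6 and 1 by DESeq2, and at an unadjusted p under 0.05, 7 were positive (15.6%) and 2 negative (11.7%). The 4 were Cdk1 (0.47, SE 0.12, adjusted p = 0.0215), Ccnb1 (0.41, SE 0.11, adjusted p = 0.0291), Mad2l1 (0.40, SE 0.12, adjusted p = 0.0384) and Prc1 (0.31, SE 0.089, adjusted p = 0.0331). In each of them the fitted knockdown effect was negative at day 1 and positive at day 3, and the fall between the days was smaller in siPRMT1 cells. Nusap1 had an interaction of 0.47 (adjusted p = 0.0618) and Foxm1 one of -0.32 (adjusted p = 0.0614). Without siCtrl day 1 replicate 3, 8 of the 34 were positive and 4 negative at an adjusted p under 0.05, and Nusap1 was called at 0.58 (adjusted p = 0.00091). Calls over all genes, which need the fold threshold as well, also rose in that fit, to 902 positive and 1005 negative of 14978 genes, from 697 and 507 of 14612. The share of all genes past the adjusted p alone is not given for fits with a library left out. Whether the 8 and 4 exceed it was not tested. The count of positive genes among the 34 was 0 without siPRMT1 day 1 replicate 3, siCtrl day 3 replicate 2 or siPRMT1 day 3 replicate 1, 1 without siCtrl day 1 replicate 2, and 2 without siCtrl day 1 replicate 1, siPRMT1 day 1 replicate 1 or 2, or siPRMT1 day 3 replicate 2, with 0 negative in each. With library totals in place of TMM scaling, the positive share of all called genes went from 57.9% to 42.2% (37.4% to 41.9% in log2 FPKM), the median of the 34 from 0.047 to -0.017, and the genes past the adjusted p from 4 positive and 0 negative to 1 and 1.

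Other genes of the same process were read from lists written by hand and counted in the same fits, with log2 fold changes of day 3 against day 1 given in parentheses. Over all genes 20.4% were called lower and 22.7% higher in siCtrl, and 17.4% lower and 19.0% higher in siPRMT1. In the counts of these lists, fell and rose mean called lower and called higher. Further genes had negative log2 fold changes without a call. Negative in siCtrl and siPRMT1 were 34 and 33 of 36 kinetochore genes, and 12 of 14 and 12 of 15 genes of G2/M entry. All 18 condensin, cohesin and separase genes were negative in both. Spindle motors and microtubule factors outside the 34 fell almost as uniformly, 20 of 21 in siCtrl and 21 of 21 in siPRMT1, led in siCtrl by Spag5 (-1.82), a spindle pole protein, and Kifc1 (-1.73), a minus-end motor, and in siPRMT1 by Troap (-1.96) and Spag5 (-1.85). Of 36 kinetochore genes, 29 fell in siCtrl and 28 in siPRMT1, led by Ndc80 (-2.00 and -1.79), which grips the microtubule, and Kntc1 (-1.79 and -1.84). Of these 18 condensin, cohesin and separase genes, 16 and 13 were called lower. They were led by Sgol2a (-1.59 and -1.54), a protector of centromere cohesion, and Esco2 (-1.56 and -1.40), a cohesin acetyltransferase. Of the genes of G2/M entry, 9 of 14 fell and 2 rose in siCtrl (Pkmyt1, 0.59, an inhibitory kinase of CDK1, and Cdc25a, 0.54), and 7 of 15 fell in siPRMT1, with Mastl (-2.03 and -1.85), the Greatwall kinase, and the phosphatase Cdc25c (-1.90 and -1.69) in the lead. Of 10 further cytokinesis genes, 6 fell in each, led by the kinase Cit (-2.07 and -2.13) and the abscission factor Cep55 (-1.77 and -1.81), and Kif13a rose in siCtrl (0.80).

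Of 17 subunits and regulators of the APC/C, 4 were called lower in each (23.5%), a share near that of all genes, with a median log2 fold change of -0.27 in siCtrl and -0.18 in siPRMT1. The 4 were its inhibitor Fbxo5 (-1.31) and the subunits Cdc23 (-0.60), Anapc5 (-0.60) and Anapc11 (-0.59) in siCtrl, and Fbxo5 (-0.95), the chain-extending enzyme Ube2s (-0.58), Anapc11 (-0.57) and Cdc23 (-0.52) in siPRMT1. Of 40 genes of DNA replication and S phase, 16 fell and 2 rose in siCtrl, and 13 fell and 1 rose in siPRMT1, with Pola1 (-1.40 and -1.40) and Pole (-1.20 and -1.38), catalytic subunits of DNA polymerases, lowest. Those that rose encode cyclins E, Ccne1 (1.02 and 0.54) in both and Ccne2 (0.71) in siCtrl. Of 22 DREAM, MuvB and E2F genes, 3 rose and 3 fell in siCtrl (13.6% each) and 3 rose (13.6%) and 5 fell (22.7%) in siPRMT1, shares below or near those of all genes. E2f2 (1.50 and 0.62), E2f6 (0.59 and 0.56) and the NF-Y subunit gene Nfyc (0.89 and 0.66) rose in siCtrl and siPRMT1. The pocket protein genes Rbl1 (-1.05 and -1.22) and Rbl2 (-1.04 and -0.59) and Lin54 (-0.59 and -0.75), the MuvB subunit that binds the CHR, fell in both, and the repressors E2f7 (-0.67) and E2f8 (-0.57) fell in siPRMT1. Of 13 D-type cyclins, G1 kinases and CDK inhibitors, 4 rose and 4 fell in siCtrl (30.8% each), and 1 rose (7.69%) and 4 fell (30.8%) in siPRMT1. The CDK inhibitor genes Cdkn2b (-1.52 and -1.14), Cdkn1b (-1.30 and -1.24) and Cdkn2d (-0.78 and -1.23) and the growth arrest gene Gadd45a (-0.69 and -1.33) fell in siCtrl and siPRMT1. Cdkn1a, the gene of the inhibitor p21, rose in both (0.90 and 0.60), and Ccnd2 (0.63), Cdk6 (0.57) and Cdk2 (0.52) rose in siCtrl.

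After knockdown, the lists held called genes at shares near or below those of all genes. At day 1, 3 of 192 listed genes were called higher (1.56%, against 1.95% of all) and 0 lower (1.61% of all) by edgeR. At an adjusted p under 0.05 without a fold threshold, 9 were higher (4.69%, against 3.22%) and 4 lower (2.08%, against 4.38%). At day 3, 1 of 191 was called higher (0.524%, against 2.84%) and 0 lower (3.80%). Without a fold threshold, 6 were higher there (3.14%, against 7.54%) and 8 lower (4.19%, against 8.94%). Single lists of few genes held larger shares. Of the D-type cyclins, G1 kinases and CDK inhibitors, 2 of 13 were called higher at day 1 (15.4%) and 1 of 13 at day 3 (7.69%). Of the DREAM, MuvB and E2F genes, 1 of 22 was at day 1 (4.55%). At day 1 the kinetochore, spindle, condensin and cohesin, APC/C, cytokinesis, G2/M entry and S phase lists held none, while E2f2 (0.59, SE 0.14, adjusted p = 0.0418), Gadd45a (0.78, SE 0.11, adjusted p = 0.00659) and the G1 kinase gene Cdk6 (0.50, SE 0.12, adjusted p = 0.0386) rose. At day 3 Ccnd1, encoding cyclin D1, rose, from 153, 158 and 140.0 CPM in siCtrl to 211, 231 and 237 in siPRMT1 libraries (0.57, SE 0.073, adjusted p = 7.5e-05), and no other gene of the lists was called.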

How the data were processed

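mRNA libraries of 3T3-L1 cells, 4 conditions with 3 libraries each, had been filtered with cutadapt (1.11) and mapped with HISAT2 (2.1.0) by the authors, and the submitters' processing notes also list RSEM (1.2.6) and mm10. The deposited counts are integers per gene, not normalized, and strand setting and treatment of reads with several matches are not given in the sources used here. The FPKM deposited by the authors could be recomputed from those counts, gene length and library totals to within 0.005. Library totals were 15116462 to 42357137, intervals and limits cover counting error only, and all columns were used.

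Groups came from the sample labels. Each comparison was fitted with edgeR (4.0.16, R 4.3.3; quasi-likelihood test, TMM, filterByExpr, Benjamini-Hochberg adjustment over all genes tested; calls at adjusted p under 0.05 and absolute log2 fold change over 0.5). SE was taken as the size of the log2 fold change over the root of its F statistic. CPM of single libraries were scaled by TMM over all 12 libraries. FPKM were compared by the exact permutation test. Alternatives were DESeq2 (1.42.0), limma (3.58.1) on log2(FPKM + 1) or log2(FPKM + 0.1) above a mean FPKM of 1 or unfiltered, RLE, upper quartile and library total scaling, other count filters, all 12 libraries in 1 model, the replicate block, removal of GC content and length trends, no fold threshold, and each library left out in turn. The scripts were tested on simulated data.

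Named genes are the 34 mitosis genes, Prmt1 and, in each other list, the 2 called genes with the largest change per comparison; where a list held 5 or fewer called genes in a direction, the others were named after their values were seen. The 34 genes and the lists were chosen with earlier results of these data known. Symbols of Sgol2a and 3 other genes were matched through RefSeq synonyms. Promoter sequences are RefSeq's (GRCm38.p6).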

Additional observations from a re-analysis of the deposited data

Results flagged for a closer look

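The knockdown effect differed between day 1 and day 3 for 4 of the 34 mitosis genes and 20 of 192 in the other lists. The rule was the interaction test (edgeR, adjusted p under 0.05 over all genes tested, at any fold). By this rule 1123 of the 14612 genes tested were positive (7.69%) and 676 negative (4.63%). Of the 34 genes, 4 were positive and 0 negative, and of the 192, 5.21% were positive and 5.21% negative. Such differences were thus not particular to these genes. The mitosis genes were Cdk1 (interaction 0.47 on the log2 scale, from -0.26 at day 1 to 0.19 at day 3), Ccnb1 (0.41, from -0.27 to 0.12), Mad2l1 (0.40, from -0.20 to 0.19) and Prc1 (0.31, from -0.084 to 0.21), all under the fold threshold of 0.5. Over the 25 alternatives of the interaction, the adjusted p of Cdk1 ran from 0.00094 to 0.075 and was under 0.05 in 20, that of Ccnb1 from 0.0033 to 0.10 and under it in 15, that of Mad2l1 from 0.0068 to 0.15 and under it in 11, and that of Prc1 from 0.0049 to 0.12 and under it in 10.

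Of the 20, 10 were positive and 10 negative, and 6, all negative, also passed the fold threshold: E2f2 (-0.88), Cenpm (-0.75), Gadd45a (-0.63), Cdk6 (-0.58), Mybl2 (-0.56) and Cdkn2c (-0.55). E2f2 was at 4.93, 3.73 and 5.15 CPM in siCtrl and 7.33, 6.65 and 6.23 in siPRMT1 libraries at day 1, and at 12.5, 13.1 and 12.5 in siCtrl and 10.4, 10.6 and 10.1 in siPRMT1 at day 3, so that the siPRMT1 libraries lay above on the first day and below on the third. Mybl2, the gene of the B-MYB factor that acts with MuvB, was at 30.6, 33.5 and 40.7 CPM in siCtrl and 46.8, 47.9 and 47.7 in siPRMT1 at day 1, without overlap, and at 44.8, 44.2 and 44.4 in siCtrl and 39.8, 45.03 and 42.6 in siPRMT1 at day 3, with overlap. Cenpm, a kinetochore gene, was at 25.99, 26.3 and 36.4 CPM in siCtrl and 35.9, 33.4 and 43.6 in siPRMT1 at day 1, with overlap, and at 24.4, 25.8 and 22.2 in siCtrl and 15.5, 20.8 and 19.97 in siPRMT1 at day 3, all siPRMT1 libraries lower.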

How the results depend on the processing

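The fall from day 1 to day 3 kept its direction for all 34 genes in both kinds of cell under every alternative, and 32 to 34 were called in siCtrl and 34 in siPRMT1. Cdca8 lost its call in siCtrl in 6 of these fits and Mki67 in log2 FPKM without a filter (adjusted p = 0.0551). Without a fold threshold, the knockdown counts went from 0 to 1 higher and 4 lower at day 1 and to 1 higher and 1 lower at day 3, and the interaction from 0 to 4 positive; with no filter on low counts the interaction called 2 positive genes. With 1 library left out, the knockdown counts stayed at 0 and the interaction called 0 to 1 positive genes: Nusap1 without siCtrl day 1 replicate 3 or siCtrl day 3 replicate 1, and Cdk1 without siCtrl day 3 replicate 3. The shared replicate numbers gave no consistent pairing of the libraries: correlations of deviations between libraries of the same number ran from -0.16 to 0.27, and in no comparison did all 3 pairs pass 0.1 or every library correlate best with its own number. In siPRMT1 between the days 2 of 6 libraries did so, and in each other comparison 3 of 6. In the fits with a replicate block the counts stayed at 34 and 34 for the falls and at 0 for both knockdown comparisons and the interaction. At an adjusted p under 0.05 alone, the block with no other change gave 1 higher and 2 lower at day 1 (1 and 4 without it). It gave 2 higher and 4 lower at day 3 (1 and 1 without it). The shares of all genes past the adjusted p alone are not given for the block fits, so these counts were not set against them. Depth limits Nek2 and Kif11, with as few as 53 and 61 counts in a library.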
